A study of Mus musculus with 8 samples.

Results

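miR-26 and miR-101 are 2 small families of microRNAs (miRNAs) that are known to repress EZH2. The guide strands mmu-miR-26a-5p, mmu-miR-26b-5p, mmu-miR-101a-3p and mmu-miR-101b-3p (written below without the prefix) were chosen by name as the 4 members, and each was listed in all 5 deposited tables, among 1978 mature miRNAs in the count tables, 605 in the ATF4 table and 696 in the P19 table. To follow PERK signaling in myoblasts, small RNA was sequenced from 8 conditions with 1 library each, so nothing below could be set against the spread of replicates and no p-value is given. C2C12, a mouse skeletal myoblast line, carried a stable lentiviral hairpin against Perk (shPerk) or a negative control hairpin (shNC), both under puromycin selection, and was sampled before induction (D0) and after 3 days in low-serum differentiation medium (D3). Another C2C12 pair carried an empty vector or the ATF4 coding sequence driven by an EF1α promoter, in growth medium without differentiation, and P19, a mouse embryonal carcinoma line, carried shNC or shPerk. For P19, the day and any induction are not given in the labels. Nor do the labels say how many hairpins or clones stood behind each line.

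A miRNA is loaded into an Argonaute protein and pairs with messenger RNAs, mostly in the 3′ untranslated region (UTR), through its seed, bases 2 to 8 from its 5′ end, which lowers their stability and translation. EZH2 is the catalytic subunit of Polycomb repressive complex 2 (PRC2), which methylates histone H3 and keeps muscle genes silent in myoblasts, and miR-26a is known to rise and EZH2 to fall as myoblasts form myotubes. PERK is a kinase of the endoplasmic reticulum that phosphorylates eIF2α under stress, and ATF4 is the transcription factor whose translation this favours.

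The mature sequences are shown because the pairs differ by very few bases, which decides what a read count can resolve. They are RefSeq sequences on GRCm38.p6, written 5′ to 3′ with the seed in capitals, and all 4 members were matched.
miR-26a-5p: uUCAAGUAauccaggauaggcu
miR-26b-5p: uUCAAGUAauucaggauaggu
miR-101a-3p: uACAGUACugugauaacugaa
miR-101b-3p: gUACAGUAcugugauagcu
miR-101c: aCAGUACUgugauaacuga
miR-26a-5p and miR-26b-5p had the seed UCAAGUA in common, which no other of 1679 mature mouse miRNAs in that table carried. Counted from the 5′ end of miR-26a-5p, they were identical at 19 of 21 compared positions, the substitutions being C11U and C21U. The annotated miR-101b-3p starts 1 base before miR-101a-3p, so their seeds as defined here are shifted, ACAGUAC against UACAGUA, although 17 of the 18 overlapping bases were identical. The single substitution was A16G, counted on miR-101a-3p. miR-101c, annotated as a miRNA of its own, lies wholly inside the sequence of miR-101a-3p.

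The members come from separate loci of GRCm38. Mature miR-26a-5p is made from Mir26a-1, with its hairpin at chr9:119031796-119031885 in an intron of Ctdspl, and from Mir26a-2, at chr10:126995530-126995613 within Ctdsp2, where it overlaps an exon of an annotated transcript. Mir26b lies at chr1:74394310-74394394 in an intron of Ctdsp1, so the 3 miR-26 genes sit on the plus strand of 3 genes of 1 family of phosphatases, in the same orientation as their hosts. Mir101a lies on the minus strand at chr4:101346945-101347027, overlapping an exon of the long non-coding RNA E130102H24Rik. Mir101b lies on the plus strand at chr19:29135279-29135375 in an intron of Rcl1. The mature sequence of miR-101c was placed at chr9:3038680-3038698 on the minus strand, with no annotated gene there.

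The Ezh2 messenger RNA was not measured in these libraries, so the stretches below show only where its 3′ UTR holds letters complementary to the seeds. The UTR of the annotated transcript used here is 402 bases long on the minus strand of chromosome 6 (GRCm38), and the matches are in capitals.
Ezh2 and miR-26, chr6:47530282-47530307: atttgaataaagaaTACTTGAacttg
Ezh2 and miR-101a, chr6:47530471-47530496: ttcaggaaccttgaGTACTGTgggca
Ezh2 and both miR-101, chr6:47530415-47530441: tctgaatttgcaaaGTACTGTAacagt
Counted from the stop codon, the miR-26 match TACTTGA occupied bases 248 to 254. The miR-101a match GTACTGT was found at bases 59 to 65 and again at bases 114 to 120, where it overlaps the miR-101b match TACTGTA at bases 115 to 121. Only the sense strand was searched, since the UTR is read as RNA. Such matches are common: of 20981 3′ UTRs, 9.67% held TACTTGA, 9.33% held GTACTGT, 12.1% held TACTGTA and 2.89% held the joined GTACTGTA. Among the other PRC2 genes, Suz12 had 1 match for miR-26 and Eed 1 match for miR-101a, and no match to any of these motifs was found in the UTR of Ezh1. A match is a description of letters and not evidence of binding.

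The 4 C2C12 hairpin libraries held between 8800977 and 11993448 reads on miRNAs. The ATF4 and P19 pairs were deposited as RPM (reads-per-million), scaled to the reads on miRNAs, and anything below 1 RPM appears as 0 in them. The spacing of low values put 1 RPM at about 10.6 reads (vector), 12.2 reads (ATF4), 7.92 reads (P19 shNC) and 4.46 reads (P19 shPerk). The labelled cell types were checked by 4 muscle miRNAs, the guides of miR-206, miR-1a and both miR-133, and by 14 pluripotency miRNAs, from the miR-302 and miR-290 clusters. The muscle miRNAs summed to 1.92%, 0.384%, 8.85% and 2.43% of reads in C2C12 shNC D0, shPerk D0, shNC D3 and shPerk D3, to 0.247% and 0.379% in vector and ATF4, and to at most 0.010% in P19. The pluripotency miRNAs took 29.7% (shNC) and 50.5% (shPerk) of the P19 libraries and 0 to 1.32 CPM (counts-per-million) in the hairpin C2C12 libraries, and none was listed in the ATF4 table. miR-21a-5p was the most abundant miRNA in every C2C12 library, at 18.01% to 26.2%.

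miR-26a-5p was by far the most abundant member in every library, and the 4 members together took from 2.12% to 9.16% of all miRNA reads. A read covers a whole miRNA of 19 to 22 bases, so levels of different miRNAs were compared as CPM or RPM without a division by length. Levels set side by side across the 3 experiments are as deposited, since these tables were made separately. In the hairpin libraries miR-26a-5p was counted in 388015 reads (shNC D0), 516885 (shPerk D0), 475384 (shNC D3) and 817501 (shPerk D3). As shares of the library these were 3.43%, 5.87%, 3.96% and 8.67%, with 95% Clopper-Pearson intervals, which cover counting error only, of 3.42% to 3.44% for the lowest and 8.65% to 8.69% for the highest. It stood at 18803.9 RPM in vector, 23660.64 in ATF4, 24111.6 in P19 shNC and 30874.4 in P19 shPerk. miR-26a-5p thus ranked 2nd in the shPerk D3 library and 15th in the vector library, with shPerk above its control in each of the 3 knockdown pairs and a 4.61-fold range over the 8 libraries.

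miR-26b-5p, with the same seed, was 9.34 to 26.4 times less abundant and varied least. It was counted in 31117, 32867, 28572 and 30970 reads in shNC D0, shPerk D0, shNC D3 and shPerk D3, or 2748, 3734, 2382 and 3285 CPM. In the other libraries it stood at 2012.52 RPM in vector, 2348.36 in ATF4, 1695.29 in P19 shNC and 1622.21 in P19 shPerk. Its highest level, in shPerk D0, was 2.30 times its lowest, in P19 shPerk.

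**Figure D1:**
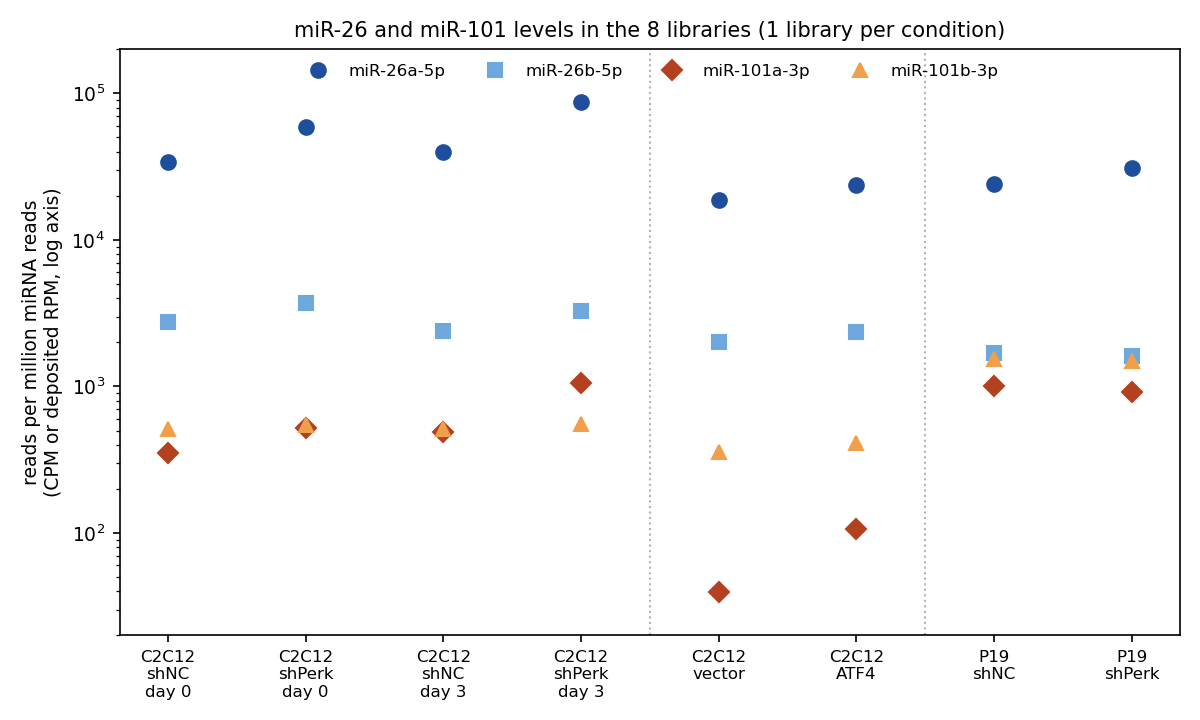
Level of each member in the 8 libraries, on a log axis (CPM for the 4 count libraries on the left, deposited RPM for the others). Each point is 1 library, and dotted lines part the 3 experiments; miR-26a-5p lies above all other members throughout, and miR-101a-3p falls to 39.6 RPM in the vector library.

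miR-101a-3p and miR-101b-3p were of similar level in most libraries and apart in the ATF4 pair. miR-101a-3p was counted in 3947 reads in shNC D0, 4575 in shPerk D0, 5859 in shNC D3 and 9995 in shPerk D3, which is 349, 520, 489 and 1060 CPM. It stood at only 39.6 RPM in vector and 107.18 in ATF4, against 1014.14 in P19 shNC and 912.97 in P19 shPerk. The range over the 8 libraries was 26.8-fold, against 4.27-fold for miR-101b-3p. For miR-101b-3p the counts were 5781, 4781, 6121 and 5219 reads, or 511, 543, 510 and 554 CPM, in the same order of hairpin libraries. Its RPM was 357.52 in vector, 410.95 in ATF4, 1526.77 in P19 shNC and 1501.72 in P19 shPerk. In CPM, the 4 hairpin libraries were thus nearly level for miR-101b-3p, and both P19 libraries were the highest of the 8.

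The row of miR-101a-3p cannot be told from that of miR-101c. miR-101c had 3984, 4613, 5901 and 10097 reads in shNC D0, shPerk D0, shNC D3 and shPerk D3, and over the 8 libraries the ratio of miR-101c to miR-101a-3p lay between 1.007 and 1.024. Values given here for miR-101a-3p therefore hold for reads that match both names, and the rule the authors used for such reads is not given in the sources used here.

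The vector and shNC D0 libraries are both C2C12 controls without induced differentiation, yet they gave different levels for miR-101a-3p. It was 8.80 times higher in shNC D0 than in vector, whereas miR-26a-5p was 1.82 times, miR-26b-5p 1.37 times and miR-101b-3p 1.43 times higher. Among 318 miRNAs with at least 10 CPM or RPM in both libraries, 0.629% had a lower vector to shNC D0 ratio than miR-101a-3p, and the 5th and 95th percentiles of the log2 ratio were -1.90 and 1.39. The muscle miRNAs also stood apart here, at 1.92% of reads in shNC D0 and 0.247% in vector, and their part was not tested. The carrier construct, the culture and the table differ together between these libraries and cannot be told apart.

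All 4 members were at higher levels in C2C12 shPerk than in shNC cells on both days. The differences at D3 were larger than at D0, but for miR-26b-5p and miR-101b-3p barely so when scaled by total counts. Fold changes below are log2 ratios of shPerk to shNC after TMM scaling, with 95% counting intervals in brackets, and a miRNA was counted as past the limit at more than 2-fold. At D0, miR-26a-5p differed by 0.91 (0.90 to 0.92), miR-101a-3p by 0.71 (0.65 to 0.77), miR-26b-5p by 0.58 (0.55 to 0.60) and miR-101b-3p by 0.22 (0.17 to 0.28). None of the 4 passed the limit at D0, where 35.9% of 602 miRNAs did so in either direction and 15.6% were higher. At D3 the values were 1.46 (1.46 to 1.47) for miR-26a-5p, 1.45 (1.40 to 1.497) for miR-101a-3p, 0.80 (0.77 to 0.82) for miR-26b-5p and 0.45 (0.40 to 0.50) for miR-101b-3p. miR-26a-5p and miR-101a-3p thus passed the limit at D3, 2 of 4 members, where 44.9% of 575 miRNAs passed in either direction and 21.9% were higher.

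The members stood above the middle of all miRNAs without reaching its edge. Their median log2 fold change was 0.64 at D0 and 1.12 at D3, beside medians of -0.06 and 0.01 over all miRNAs tested. At D3, 86.1% of miRNAs had a lower value than miR-26a-5p, 85.2% a lower one than miR-101a-3p, 72.7% than miR-26b-5p and 65.4% than miR-101b-3p. From D0 to D3 the knockdown difference was larger by 0.74 for miR-101a-3p, 0.55 for miR-26a-5p, 0.23 for miR-101b-3p and 0.22 for miR-26b-5p, and whether these differ between the days was not tested. The summed muscle miRNAs, at 8.85% of shNC D3 reads and 2.43% of shPerk D3 reads, moved with this comparison, and their part in the members' values was not tested. Scaled by total counts alone, the median of all miRNAs moved to -0.32 at D3 with 93 higher and 166 lower in place of 126 and 132, and miR-26a-5p and miR-101a-3p kept differences of 1.13 and 1.12. By that scaling miR-26b-5p differed by 0.44 at D0 and 0.46 at D3, and miR-101b-3p by 0.09 and 0.12. Under median-of-ratios scaling the D0 and D3 values were 0.63 and 0.79 for miR-26b-5p and 0.28 and 0.45 for miR-101b-3p. Under upper-quartile scaling they were 0.56 and 0.69 for miR-26b-5p and 0.20 and 0.34 for miR-101b-3p. How much larger the D3 values of these 2 members were thus depended on the scaling. With a filter of 10 CPM in both libraries miR-101b-3p differed by 0.04 at D0.

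**Figure D2:**
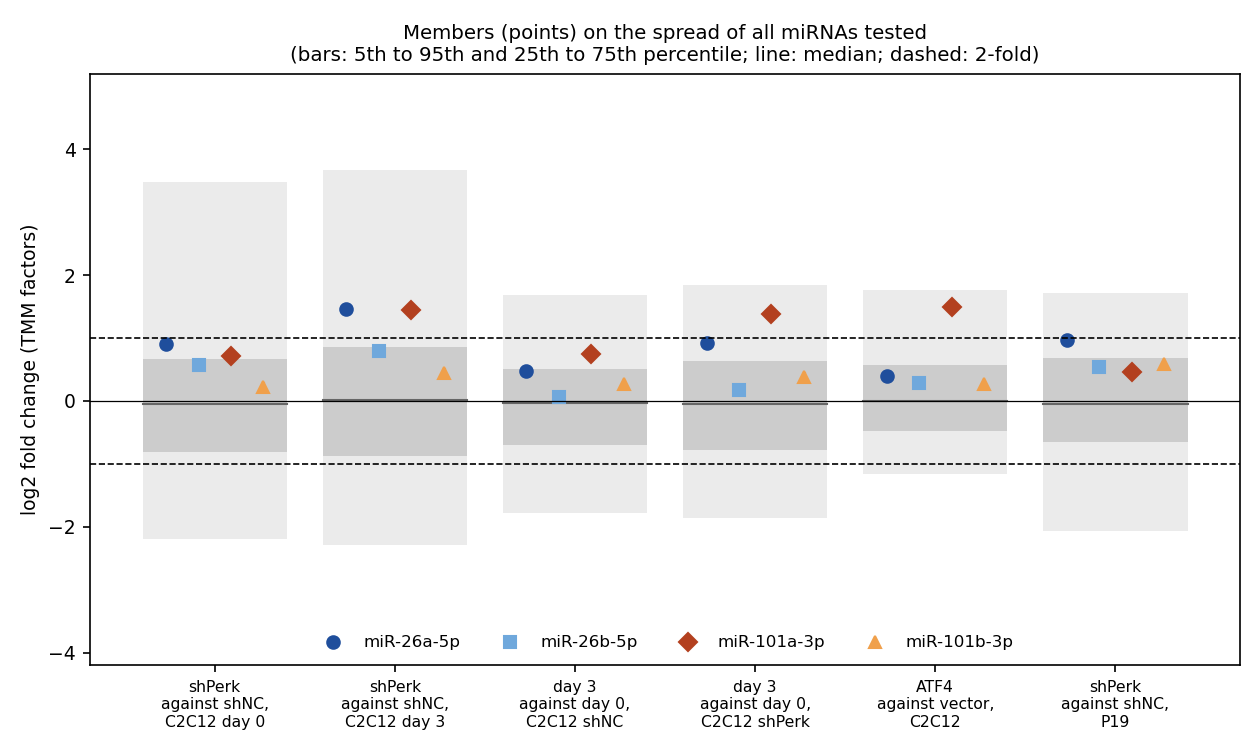
Log2 fold change of each member in the 6 comparisons, with TMM factors, over the spread of all miRNAs tested (light bar: 5th to 95th percentile; dark bar: 25th to 75th; line: median; dashed lines: 2-fold). All points lie above 0 at this scaling and inside the light bars; counting intervals are smaller than the points, and no interval is drawn for the RPM pairs.

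Over 3 days of differentiation in shNC cells, miR-101a-3p and miR-26a-5p were higher at D3 and their relatives hardly differed. The log2 fold change of D3 to D0 was 0.75 (0.69 to 0.81) for miR-101a-3p and 0.48 (0.47 to 0.48) for miR-26a-5p. It was 0.26 (0.21 to 0.32) for miR-101b-3p and 0.06 (0.04 to 0.08) for miR-26b-5p under TMM, but -0.00068 and -0.21 under total counts, so neither had a direction that held. No member passed the 2-fold limit, which 29% of 593 miRNAs passed in either direction and 12.5% as higher. For comparison, all 4 muscle miRNAs were more than 2-fold higher, with a median of 2.76.

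In shPerk cells the same interval gave larger differences for the same pair of members. miR-101a-3p was higher at D3 by 1.39 (1.34 to 1.44) and miR-26a-5p by 0.92 (0.92 to 0.93), while miR-101b-3p differed by 0.39 (0.33 to 0.44). miR-26b-5p differed by 0.17 (0.15 to 0.20) under TMM and by -0.19 under total counts. Only miR-101a-3p, 1 of the 4, was past the limit, beside 33.9% of 573 miRNAs in either direction and 16.9% as higher. The total-count scaling shifts all values down, by 0.27 in shNC and 0.36 in shPerk cells. It gave 51 higher and 140 lower miRNAs in shNC in place of 74 and 98, and 58 and 161 in shPerk in place of 97 and 97. The 2 differentiation comparisons and the 2 knockdown comparisons are built from the same 4 libraries, so they do not bear on each other as separate evidence.

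With ATF4 overexpressed in C2C12, miR-101a-3p was higher and the other members differed little. miR-101a-3p went from 39.6 RPM in vector to 107.18 RPM in ATF4, a log2 fold change of 1.497, and 93.1% of the 605 miRNAs had a lower value. The others differed by 0.40 (miR-26a-5p), 0.29 (miR-26b-5p) and 0.26 (miR-101b-3p). miR-101a-3p was the 1 member past the limit, which 22.3% of miRNAs passed in either direction and 14% as higher. With upper-quartile factors the differences of miR-26b-5p and miR-101b-3p became -0.09 and -0.11 and that of miR-26a-5p was 0.02, while miR-101a-3p remained past the limit at 1.12, and all miRNAs split into 51 higher and 116 lower in place of 85 and 50. miR-101a-3p had its lowest levels of the whole series in this pair, and the sum of the muscle miRNAs was 0.247% in vector and 0.379% in ATF4, whose part was not tested.

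In P19 cells the knockdown gave one direction for miR-26a-5p and none that held for the others. As deposited, miR-26a-5p stood at 24111.6 RPM in shNC and 30874.4 RPM in shPerk, whereas miR-26b-5p, miR-101a-3p and miR-101b-3p were each slightly lower in shPerk. After TMM scaling the log2 fold changes were 0.96 (miR-26a-5p), 0.58 (miR-101b-3p), 0.54 (miR-26b-5p) and 0.45 (miR-101a-3p), and under total counts 0.36, -0.02, -0.06 and -0.15. No member passed the limit, beside 34.6% of 696 miRNAs in either direction and 17.1% as higher. The difference between the scalings, 0.61 on the log2 scale, was the largest of the 6 comparisons, and with total counts 44 miRNAs were higher and 245 lower in place of 119 and 122. The pluripotency miRNAs, 29.7% of shNC and 50.5% of shPerk reads, moved with this comparison, and their part was not tested.

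Ratios of members within a library need no scaling between libraries. The ratio of miR-26a-5p to miR-26b-5p was higher in the shPerk, ATF4 or D3 library of each comparison. It was 12.5 in shNC D0, 15.7 in shPerk D0, 16.6 in shNC D3 and 26.4 in shPerk D3. It was 9.34 in vector and 10.1 in ATF4, and 14.2 in P19 shNC and 19.03 in P19 shPerk. As log2 differences, shPerk exceeded shNC by 0.33 (0.31 to 0.36) at D0, by 0.67 (0.64 to 0.69) at D3 and by 0.42 in P19. ATF4 exceeded vector by 0.11, and D3 exceeded D0 by 0.42 (0.39 to 0.44) in shNC and by 0.75 (0.72 to 0.77) in shPerk cells. The counting intervals of the hairpin pairs exclude 0, but they hold no biological spread.

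miR-101a-3p also gained on miR-101b-3p in the C2C12 pairs, and not in P19. The ratio of miR-101a-3p to miR-101b-3p was 0.683 in shNC D0, 0.957 in both shPerk D0 and shNC D3, and 1.92 in shPerk D3. It was 0.111 in vector and 0.261 in ATF4, and 0.664 in P19 shNC and 0.608 in P19 shPerk. miR-101a-3p was thus the rarer of the pair in every library but shPerk D3. The log2 ratio was larger in shPerk by 0.49 (0.40 to 0.57) at D0 and by 1.001 (0.93 to 1.07) at D3, and larger in ATF4 by 1.24, whereas in P19 it differed by -0.13. With miR-101c counted in place of miR-101a-3p the differences at D0 and D3 were 0.49 and 1.005.

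**Figure D3:**
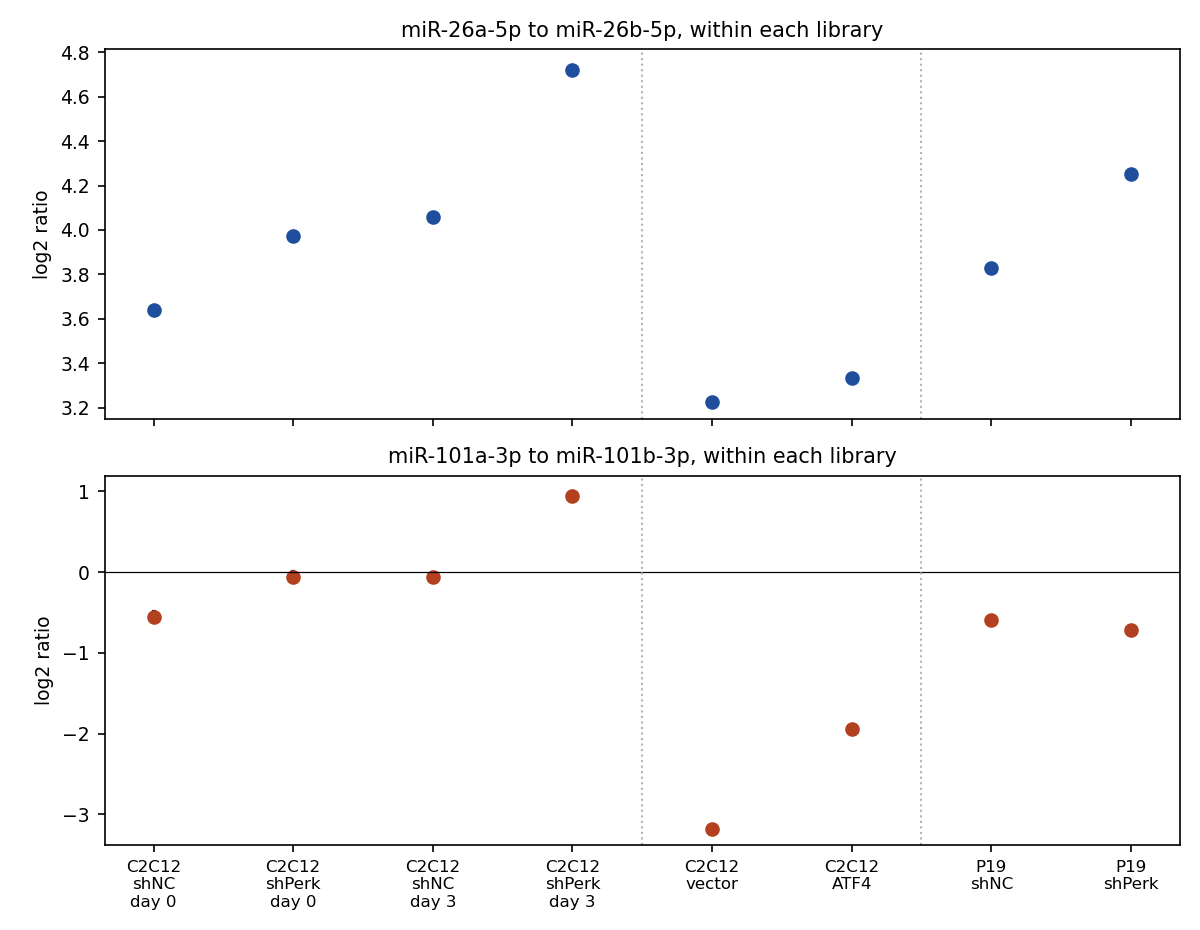
Log2 ratio of miR-26a-5p to miR-26b-5p (top) and of miR-101a-3p to miR-101b-3p (bottom) within each of the 8 libraries. Each point is 1 library and black lines, mostly hidden by the points, are 95% counting intervals for the 4 count libraries; both ratios are highest in the shPerk D3 library and lowest in the vector library.

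Between the families, miR-26 outnumbered miR-101 by 42.1 to 58.8 times in the 6 C2C12 libraries and by 10.2 and 13.5 times in P19 shNC and shPerk. The log2 ratio of the families was higher in shPerk than in shNC by 0.45 (0.41 to 0.49) at D0, 0.41 (0.37 to 0.44) at D3 and 0.41 in P19. It differed by -0.03 (-0.07 to 0.00) with differentiation in shNC cells, by -0.08 (-0.11 to -0.04) with differentiation in shPerk cells and by -0.06 with ATF4. In the 3 knockdown pairs the miR-26 sum, most of it miR-26a-5p, thus gained on the miR-101 sum. This was not a trait of each member. At D3 the log2 fold changes were 1.46 for miR-26a-5p, 1.45 for miR-101a-3p, 0.80 for miR-26b-5p and 0.45 for miR-101b-3p.

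The other arm of each hairpin, which is usually degraded when the guide is loaded, was rare throughout. The 5p arms of miR-101 were at 1 to 4 reads (miR-101a-5p) and 0 or 1 read (miR-101b-5p) in the hairpin libraries, close to the 3 reads that a count of 0 allows, and were not listed in the RPM tables. miR-26a-2-3p, specific to Mir26a-2, had 499, 636, 377 and 356 reads in shNC D0, shPerk D0, shNC D3 and shPerk D3. miR-26a-1-3p, specific to Mir26a-1, had 25, 23, 17 and 10. The arm of Mir26a-2 was thus the more abundant in all 8 libraries, by 7.65 to 40 times, and the counting interval of every difference in this ratio between hairpin libraries included 0. The 7.65 (ATF4) and the 40 (P19 shNC) rest on miR-26a-1-3p at 3.86 and 1.14 RPM. It was also low in vector (2.46 RPM) and P19 shPerk (2.02 RPM), and below 1 RPM a 0 is listed.

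The partner arm of Mir26a-2 differed less between shPerk and shNC than miR-26a-5p at D3. Reads of miR-26a-5p come from Mir26a-1 as well as Mir26a-2, so its ratio to miR-26a-2-3p is not that of the arms of a single hairpin. miR-26a-5p exceeded miR-26a-2-3p by 778, 813, 1261 and 2296 times in shNC D0, shPerk D0, shNC D3 and shPerk D3. Between shPerk and shNC the log2 ratio differed by 0.06 (-0.11 to 0.23) at D0 and by 0.86 (0.66 to 1.07) at D3, where miR-26a-2-3p itself was higher in shPerk by 0.60 (0.38 to 0.81). With differentiation the guide was higher at D3 and the partner was not, in shNC (0.70, 0.50 to 0.89, for the ratio) and in shPerk cells (1.499, 1.31 to 1.69). In the RPM pairs the ratio was 796 in vector, 802 in ATF4, 529 in P19 shNC and 675 in P19 shPerk.

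miR-26b-3p, the partner of miR-26b-5p, was counted in 91, 124, 80 and 44 reads in shNC D0, shPerk D0, shNC D3 and shPerk D3. It stood at 19.94 RPM in vector, 12.66 in ATF4, 21.85 in P19 shNC and 9.65 in P19 shPerk. The library with shPerk held more of it than its control at D0 in C2C12 and less in P19. The guide exceeded it by 342, 265, 357 and 704 times in the hairpin libraries, with a log2 difference between shPerk and shNC of -0.37 (-0.76 to 0.02) at D0 and 0.98 (0.45 to 1.51) at D3. Between D0 and D3 this ratio differed by 0.06 (-0.37 to 0.50) in shNC and by 1.41 (0.91 to 1.91) in shPerk cells. This ratio was also higher in ATF4 than in vector, 185 against 101, and in P19 shPerk than in P19 shNC, 168 against 77.6.

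**Figure D4:**
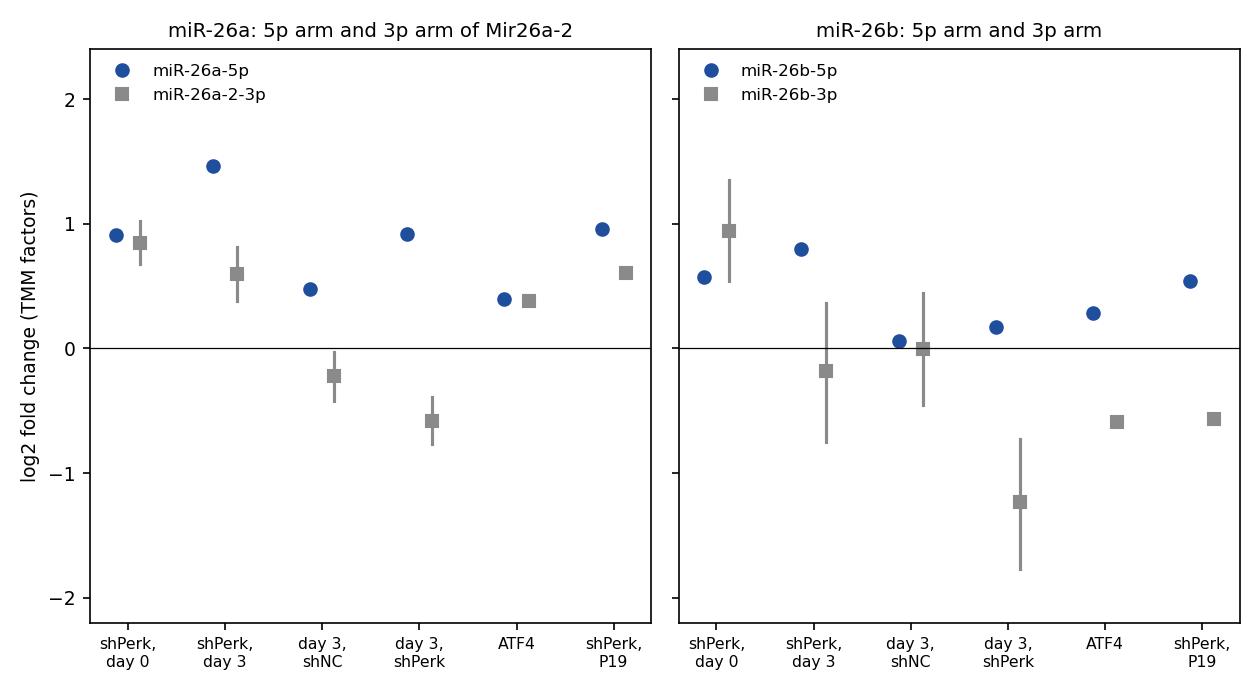
Log2 fold change with TMM factors of the miR-26 guides (circles) and of their partner arms (squares) in the 6 comparisons, with 95% counting intervals as lines for the count libraries. The guides lie above 0 throughout at this scaling, while miR-26a-2-3p and miR-26b-3p are at -0.58 and -1.23 for D3 against D0 in shPerk cells.

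Past a smaller limit of 1.5-fold, 2 members were higher in the D0 knockdown, 3 in the D3 knockdown, 1 in shNC differentiation, 2 in shPerk differentiation, 1 with ATF4 and 1 in the P19 knockdown. The shares of all miRNAs tested that were higher by this limit were 28.2%, 31%, 22.8%, 26.9%, 25% and 28.6% in the same order. With only 4 members, 1 member more or less decides such a comparison, so it cannot set them apart from the background. These counts hold for TMM. Under total counts fewer passed in every comparison but ATF4. Inside the limit were then miR-101a-3p (0.576, D0 knockdown), miR-26b-5p (0.463, D3 knockdown) and miR-101a-3p (0.487, shNC differentiation). So were miR-26a-5p in shPerk differentiation (0.562) and in P19 (0.356).

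Other miRNAs known or reported to target EZH2 formed a list of 13, of which 9 could be tested in each C2C12 comparison and 11 in P19. In C2C12 few passed the limit: 0 higher and 1 lower at D0 and 1 higher and 1 lower at D3 of the knockdown, none in either differentiation comparison, and 1 higher with ATF4. The lower one on both days was the rare miR-138-5p. It had 11 reads in shPerk D0 against 53 in shNC D0, and 9 in shPerk D3 against 46 in shNC D3. The medians of the list were 0.05 (D0 knockdown), 0.08 (D3 knockdown), 0.11 (shNC differentiation), -0.07 (shPerk differentiation) and 0.08 (ATF4). In the same order they were 0.64, 1.12, 0.37, 0.65 and 0.34 for the 4 members. In P19, 4 were higher and 1 lower, and the higher included let-7b-5p at only 5.81 RPM in shNC and 7.85 in shPerk. The median was 0.69 beside 0.56 for the members, where the same dependence on scaling holds. That median is the value of miR-214-3p, at 1.12 RPM in shPerk and a listed 0 in shNC that was taken as 1 RPM. It thus rests on a miRNA at the floor and is not a measure of the list. Of all miRNAs tested, 20.3% (D0 knockdown), 23% (D3 knockdown), 16.5% (shNC differentiation), 16.9% (shPerk differentiation), 8.26% (ATF4) and 17.5% (P19) were lower past the 2-fold limit. In the same order, 15.6%, 21.9%, 12.5%, 16.9%, 14% and 17.1% were higher past it.

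Few of the list passed the limit with a mean of 10 CPM or RPM or more. miR-30d-5p, an abundant miRNA of the miR-30 family, had 107698 reads in shNC D3 and 160474 in shPerk D3, a log2 fold change of 1.26, but 0.92 and so inside the limit under total counts. miR-32-5p, which has a seed in common with miR-25, stood at 16.16 RPM in vector and 37.97 in ATF4 (1.29), and at 155.51 RPM in P19 shNC and 210.01 in P19 shPerk (1.04). In P19, let-7c-5p was at 231.3 RPM in shNC and 398.93 in shPerk (1.39) and miR-138-5p at 37.27 and 61.7 (1.33). miR-124-3p, a neuronal miRNA, was the 1 lower member in P19, at 197.82 RPM in shNC and 29.61 in shPerk (-2.13). Under total counts miR-32-5p with ATF4 (1.23) and miR-124-3p in P19 (-2.74) were still past the limit, while miR-32-5p (0.43), let-7c-5p (0.79) and miR-138-5p (0.73) in P19 were not. Total counts hardly move the ATF4 pair. Its log2 ratio of scaling factors, ATF4 to vector, was -0.06 with TMM, 0 with total counts and 0.315 with upper quartile. miR-32-5p was not recomputed with upper-quartile factors, so its place past the limit there was not tested. miR-214-3p, known for repressing EZH2 in myoblasts, differed by 0.05 to 0.27 in the 5 C2C12 comparisons under TMM and by -0.26 to 0.0089 under total counts, so its direction did not hold.

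Which miRNAs had patterns most like those of the members was described by the root mean square difference in log2 fold change over the 5 deposited pairs, which share libraries, among 247 other miRNAs whose mean reached 10 CPM or RPM in every pair. Nearest to miR-26a-5p were miR-24-2-5p (0.173), miR-185-5p (0.228) and miR-674-3p (0.374). Nearest to miR-26b-5p were miR-149-5p (0.213), miR-320-3p (0.241) and miR-30d-3p (0.247). miR-101a-3p was nearest to miR-669a-3p and miR-669o-3p (0.218 each) and to miR-467a-3p (0.338). The log2 fold changes of miR-669a-3p and miR-669o-3p were equal in all 5 pairs, so these are not separate neighbours. Whether they count the same reads was not tested. miR-101b-3p was nearest to miR-574-5p (0.207), miR-196a-5p (0.235) and miR-30d-3p (0.274). By this measure miR-26b-5p was closer to miR-101b-3p (0.240) than to miR-26a-5p (0.428), and miR-101a-3p and miR-101b-3p were the farthest apart of the members (0.776).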

How the data were processed

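Small RNA was sequenced from 8 mouse cell line libraries, 1 for each condition, by a company that ligated linkers to both RNA ends, reverse-transcribed, amplified and gel-selected the product and annotated reads with bowtie. The bowtie version, the miRNA release and the rule for reads matching several miRNAs are not given in the sources used here, and the build is mm10 (GRCm38) in the submitters' processing notes. Of the 4 hairpin libraries of C2C12 the deposited values are the count of reads on each mature miRNA in 3 tables. For the ATF4 and P19 pairs the authors deposited RPM in 2 tables. Whole reads could be recovered from these RPM for most but not all of the low values checked, so no count model was used and no interval is given there. Only in the check of settings was counting error for their shares and ratios judged, from reads estimated by the spacing of low values. The deposited log2 fold changes and p-values hold the authors' own comparisons and were not used. All sample columns were mapped, with 0 left over.

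The members and lists were chosen with earlier results of these data known. Libraries were compared pairwise with TMM factors, on RPM values for the RPM tables, and edgeR's default prior count. The miRNAs tested had at least 1 CPM or RPM in at least 1 of the 2 libraries. For fold changes, a listed 0 in an RPM pair was taken as 1 RPM. With 1 library per condition a call rests on a 2-fold limit alone. Intervals are 95% Clopper-Pearson intervals for ratios of reads, and normal intervals for changes of a ratio; they and the floor of 3 reads cover counting error only, and PCR reads without molecular identifiers are not independent molecules. Named miRNAs were the members, their partner arms, miR-101c and the 3 nearest to each member. Other EZH2-targeting miRNAs were named if past the limit with a mean of 10 CPM or RPM or more. miR-214-3p and let-7b-5p were added after their values were seen. Alternatives were total-count, median-of-ratios and upper-quartile scaling, TMM without the members or over all 4 hairpin libraries, other filters, a prior count of 2 and a 1.5-fold limit; total counts for the other EZH2-targeting miRNAs were added after the data were seen. Fold changes and intervals were tested on simulated counts with counting error only and known library totals. TMM factors, RPM values and any spread beyond counting error were not part of that test. Sequences and annotations were read from RefSeq and GRCm38 annotation tables. Tools were Python 3.11.15, numpy 2.4.6, pandas 2.3.3, scipy 1.17.1, matplotlib 3.10.9, R 4.3.3, edgeR 4.0.16 and, for median-of-ratios factors, DESeq2 1.42.0.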

Additional observations from a re-analysis of the deposited data

Results flagged for a closer look

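The partner arm miR-26b-3p moved in opposite directions under the knockdown in C2C12 at D0 and in P19. Its log2 fold change of shPerk to shNC was 0.94 in C2C12 at D0, from 91 to 124 reads, and -0.57 in P19, from 21.85 to 9.65 RPM. With 1 library per condition, the difference between the cell lines was not tested, and at D3 in C2C12 the value was -0.18 (95% counting interval -0.75 to 0.37).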

How the results depend on the processing

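Of 284 recomputed values, 264 kept their direction and their side of the 2-fold limit or, for shares, ratios and counts, stayed within counting error or 1.5 times, 10 reversed, 3 passed the limit only under the alternative and 7 were counts that moved further. Those with miR-101c in place of miR-101a-3p could hardly move, since the 2 rows count nearly the same reads. Nor could shares with miR-101c, a small part of each library, left out of the total. A prior count of 2 also moves members at these levels little, so 264 overstates how far the results were tested. Total-count scaling gave log2 fold changes of -0.21 (miR-26b-5p) and -0.00068 (miR-101b-3p) for differentiation in shNC cells, -0.19 (miR-26b-5p) in shPerk cells, and -0.064 (miR-26b-5p), -0.15 (miR-101a-3p) and -0.024 (miR-101b-3p) for the P19 knockdown. Upper-quartile scaling gave -0.053 for miR-26b-5p in shNC differentiation and -0.092 and -0.11 for miR-26b-5p and miR-101b-3p with ATF4. A filter of 10 CPM or RPM in both libraries gave -0.082 for miR-26b-5p in shNC differentiation. miR-26a-5p passed the limit in P19 with that filter (1.02) and with median-of-ratios scaling (1.01), 1 member each, and in shPerk differentiation without a filter (1.01), 2 members. At a 1.5-fold limit 2 members passed in the D0 knockdown, 3 in place of 2 in the D3 knockdown, 1 in shNC and 2 in shPerk differentiation, and 1 in P19. The scaling shifts follow from the factors themselves, which move all miRNAs of a pair by the same amount.

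Counts over all miRNAs depended on the filter: without one, 588, 627, 556 and 511 passed the limit in the D0 knockdown, D3 knockdown, shNC and shPerk differentiation, in place of 216, 258, 172 and 194, and with 10 CPM or RPM in both libraries 81, 114, 60 and 71 did, with 60 in place of 135 for ATF4 and 144 in place of 241 for P19. A prior count of 2 gave 86 for ATF4. No paired analysis was possible because each condition has 1 library, and for the same reason no replicate could be left out. Depth limits the partner arms, at 10 to 25 reads for miR-26a-1-3p in the hairpin libraries and 1.14 to 3.86 RPM in the others.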
